A study of Arabidopsis thaliana with 6 samples.

Results

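Calmodulin passes a rise in cellular calcium on to other proteins by binding them, and plants use it early in the response to touch, cold and microbes. CRCK1, CRCK2 and CRCK3 are calmodulin-binding receptor-like cytoplasmic kinases, which carry a kinase domain but no receptor part outside the cell. CAMTA1, CAMTA2 and CAMTA3 are calmodulin-binding transcription activators, which bind a CGCG box in DNA and are known in Arabidopsis for holding salicylic acid and immune genes low at warm temperature and for raising cold genes. These 6 genes, chosen by locus identifier, are described here out of 27416 in the deposited table, and all 6 passed the filter on low values. They were chosen with their difference between the groups of this series known, so that difference is given as a description and carries no test.

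RNA abundance was measured in whole wild-type Arabidopsis thaliana seedlings that were 7 days old, with 3 libraries of seedlings given water (ddH2O) and 3 of seedlings given the peptide CLE9 at 200 nM. CLE9 is a small secreted signal that cells sense with receptor kinases at their surface. The sources used here do not give how long the seedlings were exposed. Values are FPKM, fragments scaled to transcript length and to the mapped fragments of the library, and the labels do not say whether libraries of a group came from separate plantings, so the spread between them may be technical.

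In each group the library numbered 2 was unlike the others. The summed level of 9 touch and wounding genes was 801, 4380 and 747 FPKM in water replicates 1, 2 and 3, and 1743, 4193 and 1659 FPKM with CLE9. In CLE9 replicates 1 and 3 most of that sum was TCH3 (1436 and 1350 FPKM, against 335 and 309 in water replicates 1 and 3). TCH4 was lower in those CLE9 libraries (95.1 and 133.5 FPKM, against 397 and 374). Of the 9 genes, 2 were higher with CLE9 in all 3 same-numbered pairs of libraries and 3 were lower. The median gene of that list was 4.24 log2 units higher in water replicate 2 than in the mean of the other water libraries, and 3.06 higher in CLE9 replicate 2 than in the mean of the other CLE9 libraries. Shoot and root marker genes were both detected, but their sums were lower in CLE9 replicate 2 than in any other library. Those sums were 6373 FPKM for 4 shoot markers (14060 to 18380 elsewhere) and 204.8 FPKM for 6 root markers (485 to 709 elsewhere). Most of each sum there was a single gene, RBCS1A at 6024 FPKM and PYK10 at 165 FPKM. The root sum was also lower in CLE9 replicates 1 and 3 (485 and 501 FPKM) than in every water library (664 to 709 FPKM). Of the 6 root markers, PYK10 was lower in every CLE9 library than in every water library, and SCR was higher. The shoot marker GLK1 and the root markers SHR and SCR were not lowest in CLE9 replicate 2 (38.3, 11.8 and 25.0 FPKM), while the other markers were. In bulk tissue, fewer cells of a type and less RNA per cell cannot be told apart. The part of these shifts in the values below was not tested, and values without both replicate 2 libraries are given beside them.

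CRCK1 (AT5G58940, chromosome 5, 23798562 to 23800823, plus strand) was the member with the widest gap between the groups. It was at 2.39, 3.65 and 2.64 FPKM in water replicates 1, 2 and 3, and at 15.95, 17.0 and 15.6 FPKM in CLE9 replicates 1, 2 and 3. Every CLE9 library lay above every water library, and replicate 2 with CLE9 was close to its group. The means were 2.89 ± 0.669 and 16.2 ± 0.701 FPKM (SD, n = 3 each), a ratio of 5.59, and the log2 change was 2.15 ± 0.17 (SE), or 2.26 without both replicate 2 libraries. Estimated depth was about 67, 85 and 81 fragments per kb of transcript in water and 429, 337 and 346 with CLE9, so the low water level rested on few fragments compared with the other members.

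CRCK2 (AT4G00330, chromosome 4, 142601 to 144523, minus strand) was the most abundant of the 6 genes. Its levels were 37.7, 108.9 and 33.2 FPKM in water and 96.0, 271.7 and 108 FPKM with CLE9, in the order of the replicates. The groups overlapped, since water replicate 2 lay above CLE9 replicates 1 and 3, while each CLE9 library exceeded the water library of its own number by 2.55, 2.49 and 3.26 times. The means were 59.9 ± 42.5 and 159 ± 98.1 FPKM, with a log2 change of 1.44 ± 0.60. Without both replicate 2 libraries the change was 1.50.

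CRCK3 (AT2G11520, chromosome 2, 4618581 to 4621576, plus strand) is the kinase that the MPK4 cascade phosphorylates and that the immune receptor SUMM2 watches. It was at 7.93, 20.2 and 8.40 FPKM in water and 16.75, 32.9 and 19.6 FPKM with CLE9. Here too water replicate 2 was above CLE9 replicates 1 and 3, and each CLE9 library was above the water library of its number, by 2.11, 1.63 and 2.33 times. The log2 change was 0.93 ± 0.42, and 1.06 without both replicate 2 libraries. It was 0.66 without CLE9 replicate 2 and 1.34 without water replicate 2, the lowest and highest of the values with a single library left out. For CRCK2 the same 2 settings gave 0.97 and 1.97, and for CRCK1 the 6 such values lay between 2.06 and 2.29.

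**Figure D1:**
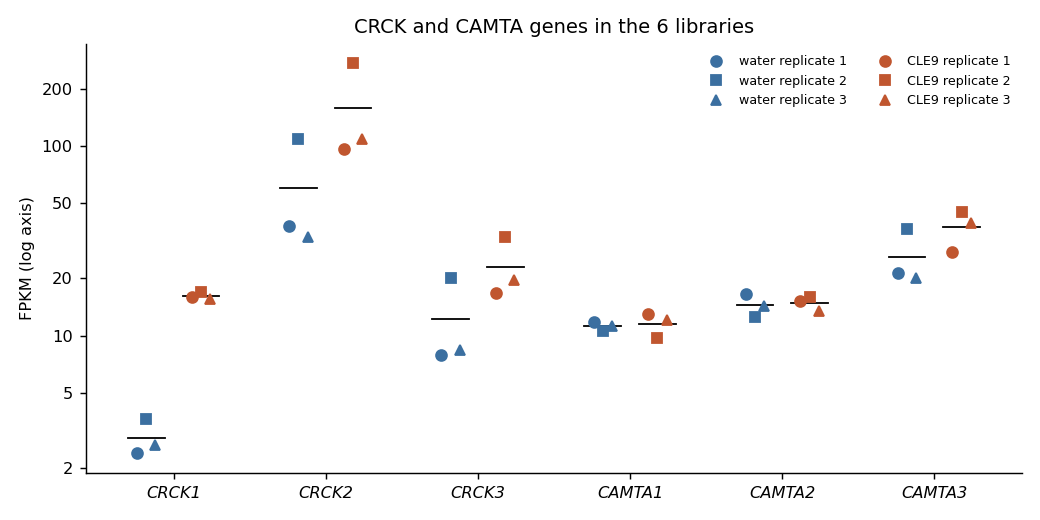
FPKM on a log axis for the 3 CRCK and 3 CAMTA genes in each library, water in blue and CLE9 in orange, with marker shape for the replicate number and a bar for the group mean (n = 3). CRCK1 is near 16 FPKM in all CLE9 libraries and under 4 in all water libraries. The squares (replicate 2) of the 3 CRCK genes and CAMTA3 are the highest point of each group, by least for CRCK1. The square of CAMTA2 is the highest with CLE9 only.

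CAMTA3, also called SR1, is the family member best known for restraint of immunity. Its gene (AT2G22300, chromosome 2, 9471325 to 9476646, plus strand) was at 21.5, 36.5 and 20.2 FPKM in water and 27.7, 44.8 and 39.2 FPKM with CLE9. The groups overlapped, with water replicate 2 above CLE9 replicate 1, and each CLE9 library was above the water library of its number, by 1.29, 1.23 and 1.94 times. The log2 change was 0.52 ± 0.30, with 0.64 without both replicate 2 libraries. It lay between 0.37 (without water replicate 3) and 0.78 (without water replicate 2) when single libraries were left out. The last 69 bases of the gene, 1.30% of it, overlap UBP4 on the other strand, which was at 3.99 to 8.08 FPKM over the 6 libraries. The sources used here do not say if strand was used in the counting.

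CAMTA1 and CAMTA2 had nearly the same level in both groups. CAMTA1 (AT5G09410, chromosome 5, 2920827 to 2927420, plus strand) was at 11.8, 10.6 and 11.2 FPKM in water and 12.95, 9.72 and 12.03 FPKM with CLE9, a log2 change of 0.04 ± 0.16. CAMTA2 (AT5G64220, chromosome 5, 25686208 to 25692250, plus strand), which activates the malate transporter gene ALMT1, was at 16.6, 12.6 and 14.2 FPKM in water and 15.2, 15.97 and 13.5 FPKM with CLE9, a change of 0.05 ± 0.17. The sign of both changes turned when single libraries were left out, with values from -0.04 (without CLE9 replicate 1) to 0.15 for CAMTA1 and from -0.04 (without water replicate 2) to 0.14 for CAMTA2. Without both replicate 2 libraries the changes were 0.11 for CAMTA1 and -0.09 for CAMTA2. The CLE9 values of CAMTA1 reached beyond the water values on both sides, while those of CAMTA2 lay within the range of the water values. The spread between libraries was larger than the difference for both genes.

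With limma on log2(FPKM + 1) over 17812 genes (adjusted p under 0.05), 1 gene was called with group only, 0.00561% of those tested, and it was not a member. In the fit blocked by replicate number, 355 genes were called (1.99%), among them CRCK1 and CRCK2, and without both replicate 2 libraries 2024 were called (11.4%), among them all 3 CRCK genes. Nothing is read from these counts, because the members were chosen with the same contrast known. The fit without replicate 2 holds only replicates 1 and 3 of each group, and omitting replicate 2 was decided with earlier results of these data known. Its p-values, here and in the lists below, carry that limit. The groups did not overlap, in the higher direction, for 1 member (CRCK1), and for 8.51% of all tested genes. CLE9 exceeded water in all 3 pairs of the same number for 4 members (the 3 CRCK genes and CAMTA3), and for 19.8% of all tested genes.

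**Figure D2:**
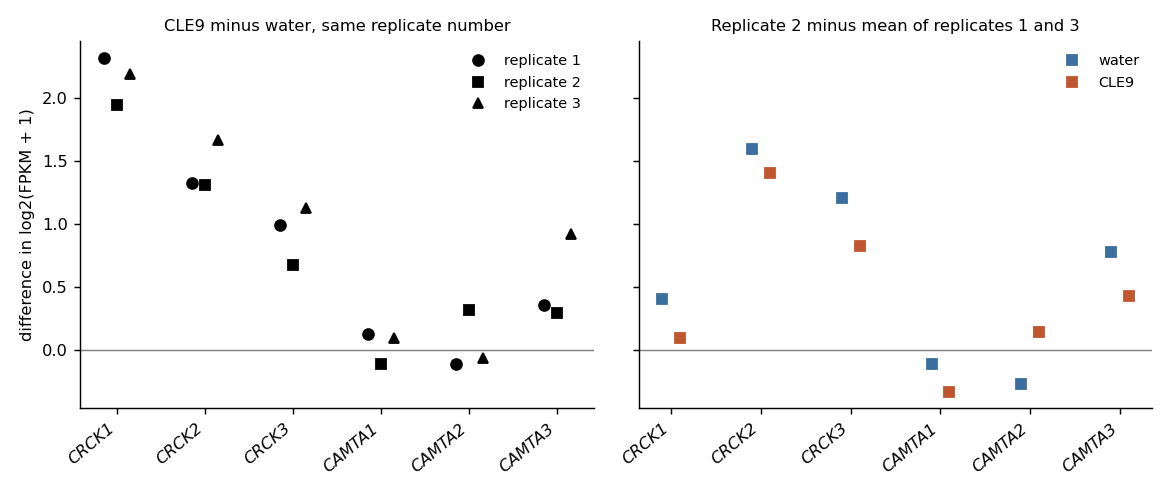
Left, the difference in log2(FPKM + 1) between the CLE9 and water library of each replicate number. Right, replicate 2 minus the mean of replicates 1 and 3 within water and within CLE9. CRCK1 has pair differences from 1.95 to 2.32 and replicate 2 shifts of 0.41 and 0.10, while CRCK2 has pair differences from 1.31 to 1.67 and shifts of 1.60 and 1.41.

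The members differed in how they stood in replicate 2, a contrast within each group. It uses the same 6 libraries, and the members were chosen with earlier results of these data known, so it is a description only. CRCK2 was 1.60 log2 units above the mean of the other water libraries in water replicate 2, and 1.41 above the other CLE9 libraries in CLE9 replicate 2. For CRCK3 these shifts were 1.21 and 0.83, for CAMTA3 0.78 and 0.43, and for CRCK1 0.41 and 0.10. CAMTA1 shifted by -0.11 and -0.33 and CAMTA2 by -0.27 and 0.14. Water replicate 2 was thus the highest water library for 4 of the 6 genes (30.3% of all tested genes), and CLE9 replicate 2 the highest CLE9 library for 5 (29.7%). The touch and wounding list moved in the same libraries by the medians given above, and its part in these shifts was not tested. CRCK1 is the one member whose difference between the groups, at least 1.95 in each pair, was several times its shift in replicate 2, whereas for CRCK2, CRCK3 and CAMTA3 both were of similar size.

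The 3 CRCK genes did not keep their proportions. CRCK1 made up 4.98%, 2.75% and 5.97% of the summed CRCK FPKM in water replicates 1, 2 and 3, and 12.4%, 5.27% and 10.9% with CLE9, so its share was higher with CLE9 in each pair. CRCK2 held 75.0% to 82.0% in water and 74.6% to 84.5% with CLE9. CRCK3 held 15.2% to 19.0% in water and 10.2% to 13.7% with CLE9. The summed level was 48.0, 132.8 and 44.2 FPKM in water and 128.7, 321.5 and 143.2 FPKM with CLE9.

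By mean FPKM in water, which is per transcript length, the order was CRCK2 (59.9), CAMTA3 (26.05), CAMTA2 (14.5), CRCK3 (12.2), CAMTA1 (11.2) and CRCK1 (2.89). The ranges over libraries of CRCK2 and CAMTA3 overlapped, though CRCK2 was above CAMTA3 within each water library. The range of CRCK3 overlapped those of CAMTA2 and CAMTA1, and CRCK3 was above both genes only in water replicate 2. The ranges of CAMTA3 and CAMTA2, and of CAMTA2 and CAMTA1, did not overlap, and CRCK1 lay below all others in every water library. With CLE9 the order was CRCK2 (159), CAMTA3 (37.3), CRCK3 (23.1), CRCK1 (16.2), CAMTA2 (14.9) and CAMTA1 (11.6). CRCK1 then stood above CAMTA2 and CAMTA1 and below CRCK3 within each CLE9 library, though its range overlapped those of CRCK3 and CAMTA2. The ranges of CAMTA3 and CRCK3 also overlapped, though CAMTA3 was above CRCK3 within each CLE9 library. Those of CRCK2 and CAMTA3, and of CAMTA2 and CAMTA1, did not overlap.

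Close copies of a gene can exchange reads, so the coding sequences of the members (RefSeq, build TAIR10.1) were compared within each family. The CRCK genes (1413, 1236 and 1533 coding bases for CRCK1, CRCK2 and CRCK3) were 63.3% to 64.1% identical over aligned bases, and the longest stretch that any pair shared exactly was 14 bases. CAMTA1 and CAMTA2 were closer, at 81.0% identity, with a longest shared run of 26 bases. CAMTA3 was 67.1% and 67.2% identical to them, with runs of 17 bases.

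The 250 bases before the RefSeq gene start (TAIR10.1) were searched on both strands for CGCG, the core of the box that CAMTA factors bind, and for TTGAC, the core of the W box that WRKY factors bind. CGCG was in 10.1% of 27443 promoters of that length and TTGAC in 44.9%. Among the members CGCG was found once, before CRCK3, and TTGAC once each before CRCK2, CAMTA1 and CAMTA2. The windows of CRCK1 and CAMTA3 held neither. Those of CRCK2 and CAMTA1 contain exon sequence of the neighbouring genes AT4G00335 and AT5G09400. The windows before CRCK1, which had the widest gap between the groups, and CRCK3, which held the CGCG core, are shown 5′ to 3′ with the motif in capitals. RefSeq starts CRCK1 and CRCK2 with longer transcripts than the deposited table does, so their windows lie further from the start used for the FPKM, and a match or its lack is a description of these letters only. The CRCK1 window is chr5:23797196-23797445 and the CRCK3 window chr2:4618295-4618544, both on the plus strand.
CRCK1: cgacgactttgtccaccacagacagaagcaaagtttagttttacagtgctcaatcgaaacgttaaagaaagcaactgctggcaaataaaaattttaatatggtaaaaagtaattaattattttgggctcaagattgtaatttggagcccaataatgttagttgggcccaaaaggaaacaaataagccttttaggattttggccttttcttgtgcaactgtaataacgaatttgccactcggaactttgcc
CRCK3: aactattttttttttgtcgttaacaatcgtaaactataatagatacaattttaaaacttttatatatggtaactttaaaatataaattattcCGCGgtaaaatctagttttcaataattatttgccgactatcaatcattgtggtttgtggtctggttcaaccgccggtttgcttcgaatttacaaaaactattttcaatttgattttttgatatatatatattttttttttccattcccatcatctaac

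The genes whose pattern over the 6 libraries was most like that of a member were taken by the smallest root mean square difference of centred log2(FPKM + 1), for the 3 members whose SD over the libraries was over 0.5. For CRCK1 these were the bHLH factor gene AT5G56960 (0.23 log2 units), the galactose mutarotase-like gene AT4G25900 (0.23) and the leucine-rich repeat kinase gene AT5G01950 (0.24). AT5G56960 was near 0 in water, at 0.07, 1.20 and 0.05 FPKM, and at 5.60, 5.41 and 5.47 FPKM with CLE9. Its likeness to CRCK1 therefore depends on the pseudocount, and its log2 change was 2.26 with a pseudocount of 1 and 4.12 with 0.1. AT4G25900 was at 19.95, 43.6 and 21.7 FPKM in water and 111.6, 149.1 and 116.4 FPKM with CLE9. For CRCK2 they were the GDSL lipase gene AT1G29670 (0.10), the cysteine proteinase family gene AT3G22260 (0.11) and the protein kinase gene AT1G03740 (0.13). AT1G29670 was at 196.5, 595 and 156.5 FPKM in water and 515, 1583 and 559 FPKM with CLE9, thus highest in replicate 2 of each group like CRCK2. For CRCK3 they were SIB2, a VQ motif protein that binds sigma factor (0.07), the hydrolase and acyltransferase gene AT4G24160 (0.09) and HIR2, a membrane protein of the hypersensitive induced reaction family (0.09). SIB2 was at 8.50, 24.3 and 8.59 FPKM in water and 18.1, 36.25 and 22.1 FPKM with CLE9. Each likeness rests on the same 6 libraries and was the closest of 17812 genes, and no test is attached to it.

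**Figure D3:**
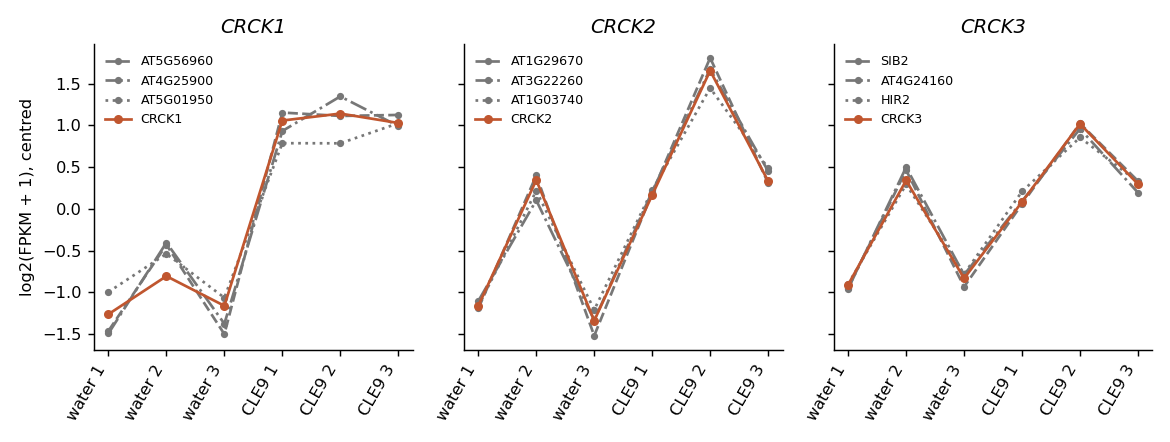
log2(FPKM + 1) centred on each gene's mean over the 6 libraries, for CRCK1, CRCK2 and CRCK3 (orange) and the 3 genes closest to each (grey). In the CRCK1 panel every CLE9 point lies above every water point, and water replicate 2 is the highest water point of all 4 genes, most clearly for AT5G56960 and AT4G25900 (shifts of 1.05 and 1.03). In the CRCK2 and CRCK3 panels replicate 2 is the highest point of both groups for every gene.

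Genes that act with the members were followed in 8 lists of 51 genes, of which 44 were tested. With group only, limma called 0 of the 44, while 11 had an unadjusted p under 0.05, against 1586 of all 17812 genes (8.90%). With the replicate block 3 rose and 0 fell, and without both replicate 2 libraries 16 rose and 1 fell, against 1.75% higher and 0.247% lower of all tested genes with the block, and 8.41% higher and 2.95% lower without replicate 2. The median log2 change over the 44 was 0.44, beside -0.05 over all tested genes. The lists were chosen with earlier results of these data known, so these counts and this median are a description only.

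The other CAMTA genes were AT1G67310, AT4G16150 and AT3G16940, and 0 of 3 passed with group only, with the block or without replicate 2. All were higher with CLE9 in each pair, with a median log2 change of 0.35. AT3G16940 was at 15.45, 13.0 and 15.1 FPKM in water and 22.1, 16.6 and 31.8 FPKM under CLE9 (log2 change 0.62 ± 0.26, limma adjusted p = 0.571). AT1G67310 was at 19.7 ± 1.85 and 25.5 ± 2.96 FPKM (0.35 ± 0.17, adjusted p = 0.625). In both, every CLE9 library was above every water library.

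Of the 7 calmodulin genes CAM1 to CAM7, which encode the calcium sensor that the members bind, 0 passed in the group-only or blocked fit, and 1 rose without replicate 2. The median change was 0.12, and -0.01 without replicate 2. CAM2, the one that rose there, was at 55.8, 118.8 and 53.4 FPKM in water and 137.8, 158.7 and 98.4 FPKM under CLE9 (log2 change 0.86 ± 0.38, limma adjusted p = 0.599, and 0.0214 without replicate 2). CAM3 was at 76.5 ± 2.90 and 104 ± 9.81 FPKM (0.44 ± 0.17, adjusted p = 0.539). Calmodulin genes are close copies of each other, so their single values are uncertain.

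Other kinases that bind or answer to calmodulin were CRLK1, CRLK2, CBRLK1 and the phytosulfokine receptor PSKR1. With the block 1 of 4 rose, and without replicate 2 there were 2, with a median change of 0.86 in the group-only fit. CRLK2, a calcium and calmodulin-regulated receptor-like kinase, was at 12.1, 29.65 and 12.1 FPKM in water and 37.4, 69.5 and 37.5 FPKM under CLE9 (log2 change 1.44 ± 0.43, limma adjusted p = 0.406, and 0.0362 in the blocked fit). PSKR1 was at 10.25, 30.5 and 11.6 FPKM in water and 36.8, 58.9 and 30.4 FPKM under CLE9 (1.33 ± 0.46, adjusted p = 0.485, 0.0506 with the block and 0.00310 without replicate 2). Both peaked in replicate 2 of each group, as CRCK2 and CRCK3 did.

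The genes around CRCK3 comprised MEKK1, MEKK2, MKK1, MKK2 and MPK4 of the kinase cascade, the receptor gene SUMM2 and the receptor-like kinase genes AT2G23200 and AT5G38990. SUMM2 was below the filter, at 0.67 to 1.24 FPKM. Of the 7 tested, 0 passed with group only or the block and 5 rose without replicate 2, and the median log2 change was 0.90. MKK2 was at 16.4, 20.9 and 20.4 FPKM in water and 31.8, 42.3 and 36.4 FPKM under CLE9 (0.90 ± 0.19, limma adjusted p = 0.269, 0.0535 with the block and 0.0243 without replicate 2). AT2G23200 was at 5.47, 12.5 and 5.45 FPKM in water and 18.7, 20.7 and 29.1 FPKM under CLE9 (1.50 ± 0.35, adjusted p = 0.297, and 0.00531 without both replicate 2 libraries). With single libraries left out, its adjusted p was under 0.05 only without water replicate 2 (0.0461). For 4 of the 7 (MKK2, AT2G23200, MPK4 and AT5G38990) every CLE9 library was above every water library, and this held for 8.51% of all tested genes. Besides MKK2 and AT2G23200, the genes that rose without replicate 2 were MKK1, AT5G38990 and MEKK1, named after their values were seen. MKK1 had 4.60, 6.14 and 4.79 FPKM in water and 18.7, 5.29 and 19.55 FPKM with CLE9, so only CLE9 replicates 1 and 3 were high. CLE9 replicate 2 lay within the range of water, and the fit without replicate 2 leaves it out (1.82, adjusted p = 0.000944). With all 6 libraries the change of MKK1 was 1.15 ± 0.48 (limma adjusted p = 0.571). AT5G38990 was at 10.9, 19.8 and 10.3 FPKM in water and 46.25, 22.0 and 47.9 FPKM with CLE9, with CLE9 replicate 2 again the lowest of its group. Its change was 2.05 without replicate 2 (adjusted p = 0.000691) and 1.42 ± 0.39 with all 6 libraries (limma adjusted p = 0.365). MEKK1, the first kinase of the cascade, was highest in replicate 2 of each group. Its change was 0.70 ± 0.53 (limma adjusted p = 0.761), and 0.74 without replicate 2 (adjusted p = 0.0213).

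Around CAMTA3 itself, BT4 (AT5G67480), an adaptor of protein breakdown, and the resistance genes AT4G12010 and AT5G18370 were followed, and 0 of 3 passed with group only or the block. AT4G12010 was at 3.65 ± 0.166 and 6.50 ± 1.91 FPKM (log2 change 0.66 ± 0.23, limma adjusted p = 0.488), and rose without replicate 2 (adjusted p = 0.0147). BT4 was at 18.8, 17.0 and 18.65 FPKM in water and 10.7, 22.8 and 9.56 FPKM with CLE9. It fell without replicate 2 (-0.83, adjusted p = 0.0135), but CLE9 replicate 2 was the highest of all libraries (-0.42 ± 0.33 with all 6, adjusted p = 0.772).

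The CBP60 family holds calmodulin-binding proteins such as CBP60G, and also SARD1, which does not bind calmodulin and switches on salicylic acid synthesis together with CBP60G. Its genes had a median log2 change of 0.64 over 8 tested genes. With group only 0 passed, with the block 1 rose and without replicate 2 there were 4. AT4G31000 was at 2.78, 5.70 and 2.69 FPKM in water and 7.98, 12.8 and 7.09 FPKM under CLE9 (1.14 ± 0.33, limma adjusted p = 0.375, and 0.0410 in the blocked fit). AT5G57580 was at 32.4 ± 2.87 and 52.3 ± 7.04 FPKM (0.67 ± 0.18, adjusted p = 0.353 and 0.0116 without replicate 2). CBP60A and CBP60G, named after their values were seen, also rose without replicate 2 (0.99 and 1.83, adjusted p = 0.00984 and 0.0123). With all 6 libraries their changes were 0.76 ± 0.48 and 1.65 ± 1.43 (limma adjusted p = 0.725 and 0.789). CBP60G was at 3.98, 83.4 and 5.195 FPKM in water and 24.6, 208.7 and 14.1 FPKM with CLE9, far higher in replicate 2 of each group.

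Immune and salicylic acid genes that CAMTA factors keep low numbered 12, of which 8 were tested and FMO1, ALD1, PR1 and PR2 were below the filter, at 0 to 1.94 FPKM. At these low levels FMO1 was higher in every CLE9 library (0.753, 0.606 and 1.025 FPKM) than in every water library (0.118, 0.074 and 0.115 FPKM). It was not tested, and the groups overlapped for ALD1, PR1 and PR2. Over the 8 the median log2 change was 0.95, or 0.58 without replicate 2, with 0 called by group only, 1 risen with the block and 3 risen without replicate 2. EDS5, a transporter needed for salicylic acid synthesis, was at 1.41, 3.68 and 1.48 FPKM in water and 3.67, 16.0 and 5.93 FPKM under CLE9 (1.43 ± 0.53, limma adjusted p = 0.510, and 0.0482 in the blocked fit), and its change was 0.91 without CLE9 replicate 2. PAD4, a lipase-like regulator of immunity, was at 9.17, 21.3 and 10.4 FPKM in water and 19.6, 31.6 and 18.7 FPKM under CLE9 (0.78 ± 0.37, adjusted p = 0.621, and 0.0112 without replicate 2). NDR1, a membrane protein needed for some resistance genes to act, was named after its values were seen. It was at 2.58, 47.9 and 2.51 FPKM in water and 9.96, 37.3 and 10.8 FPKM with CLE9 (1.68 without replicate 2, adjusted p = 0.00145). In replicate 2 NDR1 was lower with CLE9, and with all 6 libraries its change was 1.00 ± 1.14 (limma adjusted p = 0.841). The list was 0.99 log2 units higher in water replicate 2 than in the mean of the other water libraries and 1.31 higher in CLE9 replicate 2 than in the other CLE9 libraries, by its median.

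Stress genes that CAMTA factors raise (CBF1, CBF2, CBF3, ZAT12, GOLS3 and ALMT1) had 4 tested members and 0 called in any of the 3 fits, with a median log2 change of -0.59. CBF2, a cold factor, was at 0.28, 29.7 and 0.50 FPKM in water and 0.16, 2.07 and 0.05 FPKM under CLE9 (-1.33 ± 1.28, limma adjusted p = 0.810). CBF1 was at 0.08, 7.72 and 0 FPKM in water and 0, 0.78 and 0 FPKM under CLE9 (-0.80 ± 0.88, adjusted p = 0.838). In both genes water replicate 2 was far above every other library, and without that library the changes were 0.16 for CBF2 and 0.23 for CBF1. Without both replicate 2 libraries the median of the list was -0.19.

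**Figure D4:**
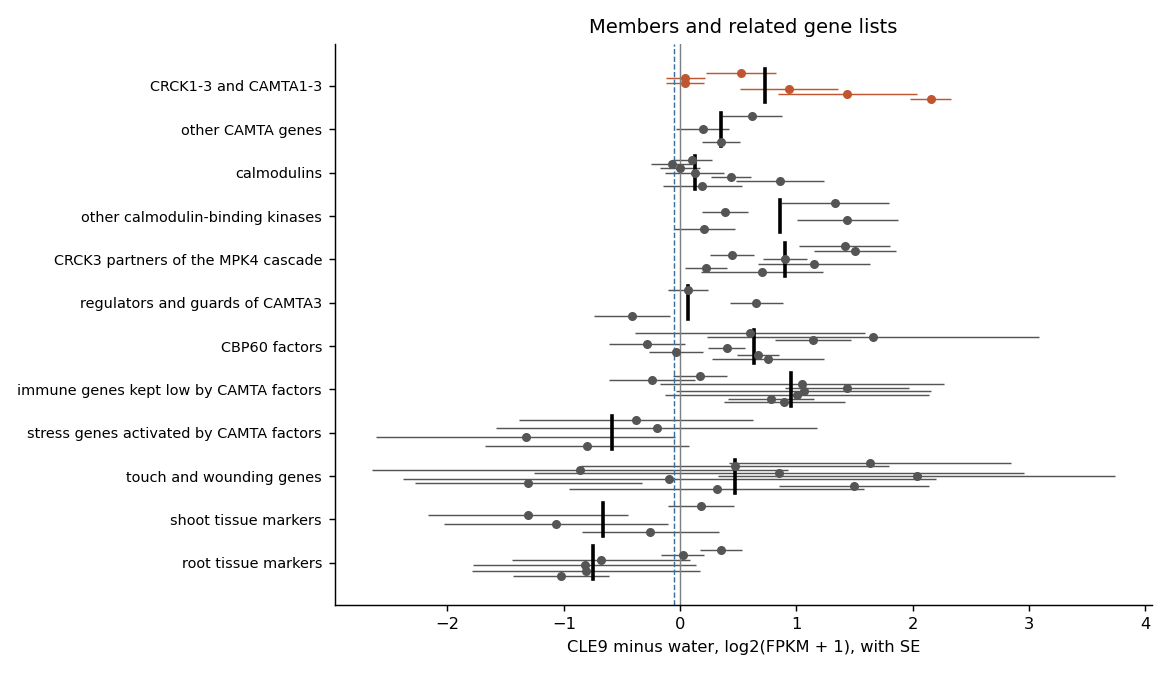
Log2 change between CLE9 and water with its SE for the members (orange) and every tested gene of the related lists and tissue or touch lists (grey), with a black bar for the median of each list and a dashed line for the median of all tested genes (-0.05). The CRCK3 partners and the other calmodulin-binding kinases have medians of 0.90 and 0.86, while the shoot and root markers have medians of -0.66 and -0.75, which were -0.16 and -0.38 without both replicate 2 libraries.

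The comparison lists had no called gene with group only or the block. Of 9 touch and wounding genes, 5 rose and 2 fell without replicate 2. TCH3, a calmodulin-like gene, was at 335, 1441 and 309 FPKM in water and 1436, 1731 and 1350 FPKM under CLE9 (log2 change 1.50 ± 0.64, limma adjusted p = 0.586, and 0.00134 without replicate 2), and ERF6 had a change of 1.64 ± 1.21 (adjusted p = 0.759), which was 3.05 without water replicate 2 and 2.61 without both replicate 2 libraries (adjusted p = 0.000575). The other genes called there, named after their values were seen, were WRKY40, ZAT10 and ERF5, which rose, and TCH4 and CML38, which fell (-1.77 and -0.92). With all 6 libraries the changes of these genes were, in that order, 2.035 ± 1.71, 0.85 ± 2.105, 0.47 ± 1.32, -1.30 ± 0.97 and -0.86 ± 1.79. Their limma adjusted p-values were then 0.782, 0.942, 0.946, 0.761 and 0.927. In replicate 2 WRKY40, ZAT10 and ERF5 were not higher with CLE9 (233, 419 and 121 FPKM) than in water (234, 427 and 150 FPKM). PYK10, a root beta-glucosidase, was at 619 ± 2.32 and 329 ± 142 FPKM (-1.03 ± 0.41, adjusted p = 0.553, and a change of -0.59 without CLE9 replicate 2) and SCR at 20.7 ± 1.45 and 26.9 ± 4.78 FPKM (0.35 ± 0.18, adjusted p = 0.663). PSBO2 and LHCB4.2 of the shoot list had changes of -1.31 ± 0.86 and -1.07 ± 0.96 (adjusted p = 0.728 and 0.796), which were -0.30 and -0.015 without CLE9 replicate 2. The median of the shoot list was -0.66 (-0.16 without both replicate 2 libraries) and that of the root list -0.75 (-0.38). The part of these tissue shifts in the values of the members was not tested.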

How the data were processed

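The authors deposited FPKM (fragments per kilobase of transcript per 1e6 mapped fragments) for 27416 genes in 6 libraries, per the file headers. RNA was extracted with TRIzol and libraries were made with the NEBNext Ultra kit, per the labels' protocols. Named without a role in the submitters' processing notes are build TAIR10, DESeq2 1.16.1, featureCounts 1.5.0-p3, StringTie 1.3.3b, HISAT2 2.0.5 and CASAVA 1.8. Coordinates of genes are those of the deposited table. Symbols, product names, promoters and coding sequences came from RefSeq (TAIR10.1). Of 26719 genes found in both, 34.0% started at the same base, so coordinates were not mixed. Some list genes have no symbol there and are given by locus identifier.

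Depth, estimated from low FPKM values of 4925 single-exon genes, was 19.9 to 30.7 M fragments per library (M being 1e6), and between 40.2% and 48.8% of low values were whole within 0.1 fragments (20% by chance), so reads were not recovered. The 17812 genes averaging at least 1 FPKM were analysed as log2(FPKM + 1) with limma 3.58.1 in R 4.3.3 (group only, empirical Bayes with trend, two-sided, Benjamini-Hochberg over all genes tested). A pseudocount of 1 understates the change of low genes. The fits were tested on simulated data. Replicate numbers are shared by both groups, and same-numbered libraries were taken as pairs. Their deviations from the group means correlated at 0.545, 0.743 and 0.583. For replicates 1 and 3 the crossed libraries correlated as highly (0.620 and 0.664), so the correlations set replicate 2 apart but do not show how replicates 1 and 3 pair. Blocked values are given where they change a call. Members, lists and the omission of replicate 2 were chosen with earlier results of these data known, and list membership came from general knowledge. Named were the members, every gene called with group only and the 2 smallest p-values of each list, and the 3 nearest patterns. List genes called only in the blocked fit or without replicate 2 were named after their values were seen.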

Additional observations from a re-analysis of the deposited data

How the results depend on the processing

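Genes called by limma between CLE9 and water numbered 1 as reported, 0 with genes of 1 position summed, 2 with quantile normalization, 3 without a filter on low values, 355 with the replicate block and 2024 without both replicate 2 libraries, and from 0 to 204 with single libraries left out. The 204 came without water replicate 2. Of the related lists, 0 genes were called as reported, 3 with the replicate block, 17 without both replicate 2 libraries and 0 to 1 with single libraries left out. The log2 change of CRCK1 was 2.46 with a pseudocount of 0.1 against 2.15 with 1, since a smaller pseudocount shrinks the change of a low gene less. The other member values moved by less than the spread between replicates under the alternatives run for them (genes of 1 position were summed only for the counts of all genes and the signs below). With single libraries left out they lay at 2.06 to 2.29 for CRCK1, 0.97 to 1.97 for CRCK2, 0.66 to 1.34 for CRCK3, 0.37 to 0.78 for CAMTA3, -0.04 to 0.15 for CAMTA1 and -0.04 to 0.14 for CAMTA2. CAMTA2 was at -0.09 without both replicate 2 libraries. Of the 42 other named genes, 42 kept their sign under each alternative except 4 that left out a single library. Without water replicate 1, water replicate 3 or CLE9 replicate 2, 40 did, and ZAT10 and ERF5 turned. Without water replicate 2, 39 did, and CBF1, CBF2 and CML38 turned. With single libraries left out, 6 to 15 of the 42 changes moved by over 1.5 times, and 12 did without both replicate 2 libraries. With a pseudocount of 0.1, 3 did (AT5G56960, CBF1 and CBF2). At the estimated depths 1 fragment in 1 kb of transcript is worth 0.0326 to 0.0504 FPKM, which limits values near 0 such as those of CBF1.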
